A study of Mus musculus with 24 samples.

Results

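The genes described here encode the chains of the receptors for interleukins 23, 12, 1 and 18 (IL-23, IL-12, IL-1 and IL-18). They are Il23r, Il12rb1, Il12rb2, Il1r1, Il1rap, Il18r1 and Il18rap, which were picked by gene symbol from a table of read counts with 55487 genes. All 7 were present and all 7 were among the 21286 genes that passed a filter on low counts. Bulk RNA-seq was run on sorted cells of mouse small-intestinal lamina propria, the connective tissue layer under the gut epithelium. The mice labelled DKO were 8 to 12 weeks old and carried Vav1-Cre, a recombinase expressed in the blood cell lineage, together with floxed alleles (fl/fl) of both NR1D1 and NR1D2. Their products REV-ERBα and REV-ERBβ are heme-binding repressors of the circadian clock. Littermates of the same age with the fl/fl alleles are labelled WT, so floxed alleles were shared by both genotypes. Vav1-Cre is active in blood cells in general, so the deletion was not limited to the sorted cells. Each genotype has 3 libraries of each of 4 populations, labelled ILC1, NKp46, CCR6 and DN, which gives 24 libraries in 8 groups. The series title speaks of ILC1 and subsets of ILC3, and no source used here says what DN stands for. Whether the 3 libraries of a group are separate animals is not labelled, and p-values then cover only the spread between libraries, which may be technical.

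Innate lymphoid cells (ILCs) are tissue lymphocytes that lack rearranged antigen receptors and respond to cytokines from neighbouring cells. IL-12 and IL-23 share a subunit, and their receptors share the chain IL-12Rβ1, encoded by Il12rb1. Paired with IL-12Rβ2 (Il12rb2) it binds IL-12 and signals mainly through STAT4 towards interferon gamma. Paired with IL-23R (Il23r) it binds IL-23 and signals mainly through STAT3 towards IL-17 and IL-22, the cytokines of ILC3. IL-1 and IL-18 act through a ligand-binding chain (Il1r1, Il18r1) and an accessory chain (Il1rap, Il18rap), whose intracellular domains recruit MyD88. IL-1 is known to add to IL-23 in driving ILC3, and IL-18 to add to IL-12 in driving interferon gamma.

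Levels are given as CPM, the counts of a gene per 1e6 counts of its library, with libraries scaled by the trimmed-mean method. A difference is called when edgeR's quasi-likelihood test gives an adjusted p under 0.05 (Benjamini-Hochberg, over all 21286 genes). Libraries held 12763228 to 84395154 counts. WT ILC1 library 2 was the smallest and stood apart, as protein-coding genes took 84.06% of its counts and 91.57% to 94.94% of those of the other 23, and with a summed level of 10 myeloid markers of 648 CPM against 192 and 224 CPM in the other WT ILC1 libraries. Of the sorting markers, Ccr6 set the CCR6 groups apart, while Ncr1, which encodes NKp46, did not set NKp46 apart from ILC1. Ncr1 averaged 464 CPM in DKO NKp46 and 824 CPM in WT NKp46, and 1423 CPM in DKO ILC1 and 1614 CPM in WT ILC1. It averaged 41.4 CPM in DKO DN and 55.5 CPM in WT DN, and stayed below 10 CPM on average in both CCR6 groups. Ccr6 averaged 766 CPM in DKO CCR6 and 1400 CPM in WT CCR6, and at most 40.7 CPM in any other group. Nr1d1 ranged from 458 to 1772 CPM in DKO libraries and from 49.8 to 643 CPM in WT libraries, and was called higher in DKO in all 4 populations. Nr1d2 ranged from 36.1 to 149 CPM in DKO libraries and from 13.0 to 67.1 CPM in WT libraries. Within each population its DKO libraries lay above the WT libraries. It was called higher in DKO in ILC1, CCR6 and DN, but not in NKp46 (adjusted p = 0.13). Counts per gene cannot check the deletion, because they also take reads from exons outside the floxed part and the labels do not say which exons were floxed.

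In the genome (GRCm38, GENCODE annotation), 5 of the 7 members lie close to another member. Il12rb2 (chr6:67291318-67376188) and Il23r (chr6:67422932-67491855) both lie on the minus strand of chromosome 6, 46.7 kb apart. Il1r1 (chr1:40225080-40317257), Il18r1 (chr1:40465552-40500854) and Il18rap (chr1:40515362-40551705) lie on the plus strand of chromosome 1 within 326.6 kb, and Il18rap starts 14.5 kb after Il18r1 ends. Il12rb1 lies on chromosome 8 (chr8:70808449-70821424, plus strand) and Il1rap on chromosome 16 (chr16:26581704-26730117, plus strand). The 250 bases before the start site are shown for the 2 members that were called lower in DKO, Il23r and Il18rap, and for Il12rb2, the neighbour of Il23r, which was not called. REV-ERBs are known to bind the half-site AGGTCA, which is in capitals on either strand. The windows are chr6:67491856-67492105 (minus strand), chr1:40515112-40515361 (plus strand) and chr6:67376189-67376438 (minus strand) of GRCm38.p6, read 5′ to 3′ from RefSeq start sites.
Il23r: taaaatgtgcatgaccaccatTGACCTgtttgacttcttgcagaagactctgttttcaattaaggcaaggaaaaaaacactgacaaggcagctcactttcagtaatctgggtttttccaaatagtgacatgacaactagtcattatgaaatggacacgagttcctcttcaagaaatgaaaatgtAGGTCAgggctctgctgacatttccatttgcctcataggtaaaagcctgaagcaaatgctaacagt
Il18rap: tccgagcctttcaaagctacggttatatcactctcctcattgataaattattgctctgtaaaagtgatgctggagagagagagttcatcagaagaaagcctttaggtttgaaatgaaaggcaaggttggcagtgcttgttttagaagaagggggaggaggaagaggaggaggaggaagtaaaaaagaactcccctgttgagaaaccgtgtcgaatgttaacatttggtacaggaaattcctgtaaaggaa
Il12rb2: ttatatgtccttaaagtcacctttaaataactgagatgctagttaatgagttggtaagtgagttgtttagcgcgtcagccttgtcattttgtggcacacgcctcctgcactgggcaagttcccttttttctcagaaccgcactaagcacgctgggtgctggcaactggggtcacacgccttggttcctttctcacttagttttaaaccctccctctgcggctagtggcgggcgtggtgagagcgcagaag
Of the 7 members 6 matched the RefSeq promoter table by symbol, and Il12rb1 did not. Among those 6, AGGTCA was found before Il23r and in no other window. In Il23r it stood 229 to 224 bases before the start on the opposite strand, and 66 to 61 bases before it as printed. The second match was part of TAGGTCA, a longer motif that contains it, 67 to 61 bases before the start. The longest motif searched, which has further set bases before TAGGTCA, was found in no window of these members, that of Il23r included. Both strands of 300 bases per promoter, 250 before and 50 after the start, were searched. Of all 32851 promoters in the table, 16.3% held AGGTCA, 2.61% held TAGGTCA and 0.219% held the longest motif. A match of letters is a description and not a binding site.

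Between the genotypes, Il23r was called lower in DKO in all 4 populations and Il18rap in NKp46 and CCR6, and no member was called higher (the shares of all tested genes called higher were 0.78% for ILC1, 1.99% for NKp46, 1.93% for CCR6 and 1.49% for DN). That is 1 of the 7 members in ILC1, where 0.277% of all tested genes were called lower, 2 in NKp46 (2.17%), 2 in CCR6 (2.04%) and 1 in DN (1.34%). Members whose 3 DKO libraries all lay below the 3 WT libraries numbered 2 in ILC1 (4.26% of all genes), 4 in NKp46 (11.7%), 3 in CCR6 (13.3%) and 2 in DN (12.8%). Members whose DKO libraries all lay above the WT libraries numbered 0 in ILC1 (6.53% of all genes), 1 in NKp46 (9.76%), 2 in CCR6 (11.5%) and 1 in DN (11.2%). The members' median log2 fold change in ILC1 was -0.13, beside 0 over all tested genes. For NKp46 it was -0.44, beside -0.02, for CCR6 -0.03, beside -0.02, and for DN -0.24, beside -0.04. Averaged over the populations, 2 members were called lower (5.99% of all genes) and none higher (4.81%).

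**Figure D1:**
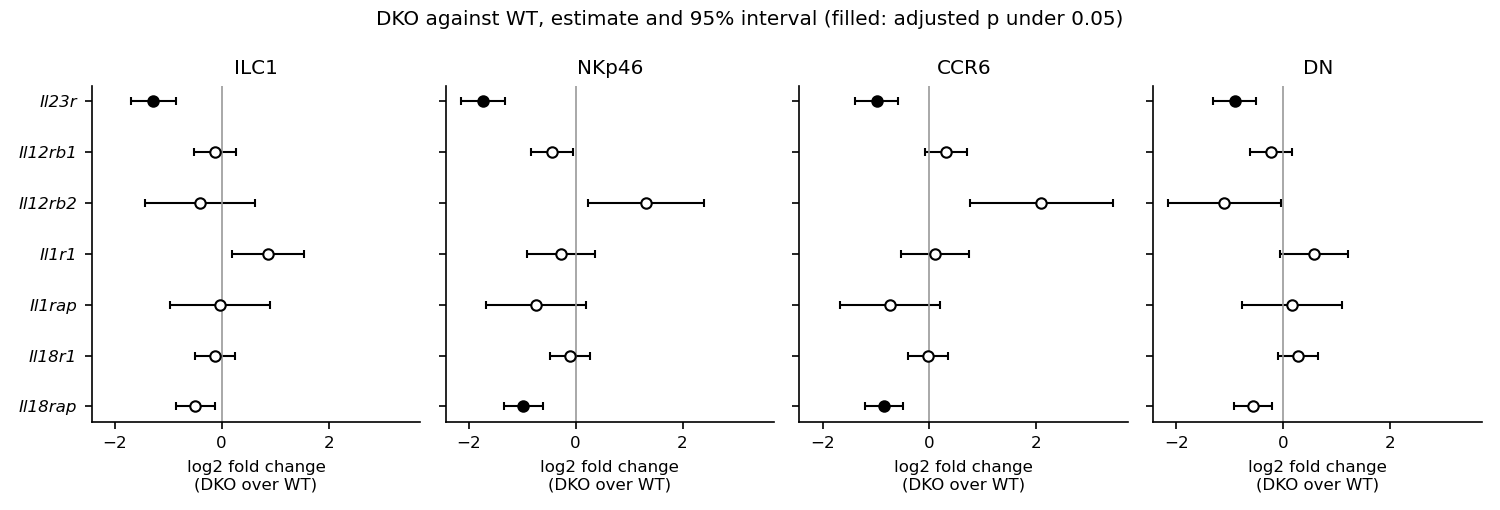
Log2 fold change of DKO over WT (horizontal axes) with its 95% interval for the 7 members in each population; filled points passed an adjusted p of 0.05 in edgeR's quasi-likelihood test. Il23r is filled in all 4 panels and Il18rap in NKp46 and CCR6, and all 6 filled points lie below 0.

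Between WT populations, 4 of the 7 members were called for ILC1 against NKp46 (10.7% of all genes), 4 for CCR6 against NKp46 (6.23%), 2 for DN against NKp46 (2.97%), 4 for CCR6 against DN (5.84%), 4 for ILC1 against CCR6 (19.3%) and 3 for ILC1 against DN (7.61%). Il12rb2 and Il23r were each called in 5 of these 6 comparisons. Between DKO populations 3 were called for ILC1 against NKp46 (4.77%), 4 for CCR6 against NKp46 (4.8%), 1 for CCR6 against DN (1.79%), 4 for ILC1 against CCR6 (11.9%) and 4 for ILC1 against DN (7.24%). For DKO DN against DKO NKp46 edgeR called 0 members (0.723%), with 2 at an unadjusted p under 0.05 and 1 called by DESeq2. In DKO CCR6 against DKO NKp46, the calls of Il1r1 (1.20 ± 0.31, adjusted p = 0.025) and Il18rap (-0.67 ± 0.17, adjusted p = 0.026) depended on single libraries. That of Il1r1 was lost without any 1 of the 3 DKO CCR6 or 3 DKO NKp46 libraries (adjusted p 0.058 to 0.095) and with no filter on low counts (0.098). That of Il18rap was lost without any 1 of the DKO CCR6 libraries, DKO NKp46 library 1 or 3, DKO ILC1 library 2 or WT DN library 3 (0.053 to 0.20), and with only the groups compared in the fit (0.057).

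Il23r, the chain specific for IL-23, was lower in DKO than in WT in every population. It had 12.7, 7.17 and 13.2 CPM in DKO ILC1, against 25.2, 26.8 and 28.3 CPM in WT ILC1. It had 41.3, 71.2 and 58.1 CPM in DKO NKp46, against 212, 184 and 171 CPM in WT NKp46. The DKO libraries lay below all WT libraries in both populations. In CCR6 the DKO libraries had 177, 159 and 146 CPM of Il23r, against 306, 325 and 324 CPM in WT. In DN they had 102, 108 and 87.1 CPM, against 175, 166 and 219 CPM in WT. Here too the genotypes did not overlap. The log2 fold change of DKO over WT was -1.73 ± 0.20 (SE) in NKp46, which is a fold of 0.301 (adjusted p = 7.3e-06). For ILC1 it was -1.28 ± 0.20 (adjusted p = 0.00076), for CCR6 -0.98 ± 0.19 (0.0026) and for DN -0.91 ± 0.19 (0.0073). Averaged over the populations it was -1.23 ± 0.10 (adjusted p = 6e-09). In bulk samples, fewer cells that express a gene and less RNA of it per cell cannot be told apart. Il23r was among 21 genes, 0.0987% of those tested, that were called lower in DKO in all 4 populations. The size of the effect was largest in NKp46, but the differences of the genotype effect between populations were not called. The widest difference was DN minus NKp46, 0.82 ± 0.27 on the log2 scale (95% interval 0.256 to 1.38, adjusted p = 0.24). The call in ILC1 was lost when the fit held only the 2 groups compared (adjusted p = 0.54), with a log2 fold change of -1.29. The call in DN was lost without DKO DN library 3 (adjusted p = 0.065) or WT DN library 3 (adjusted p = 0.067).

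**Figure D2:**
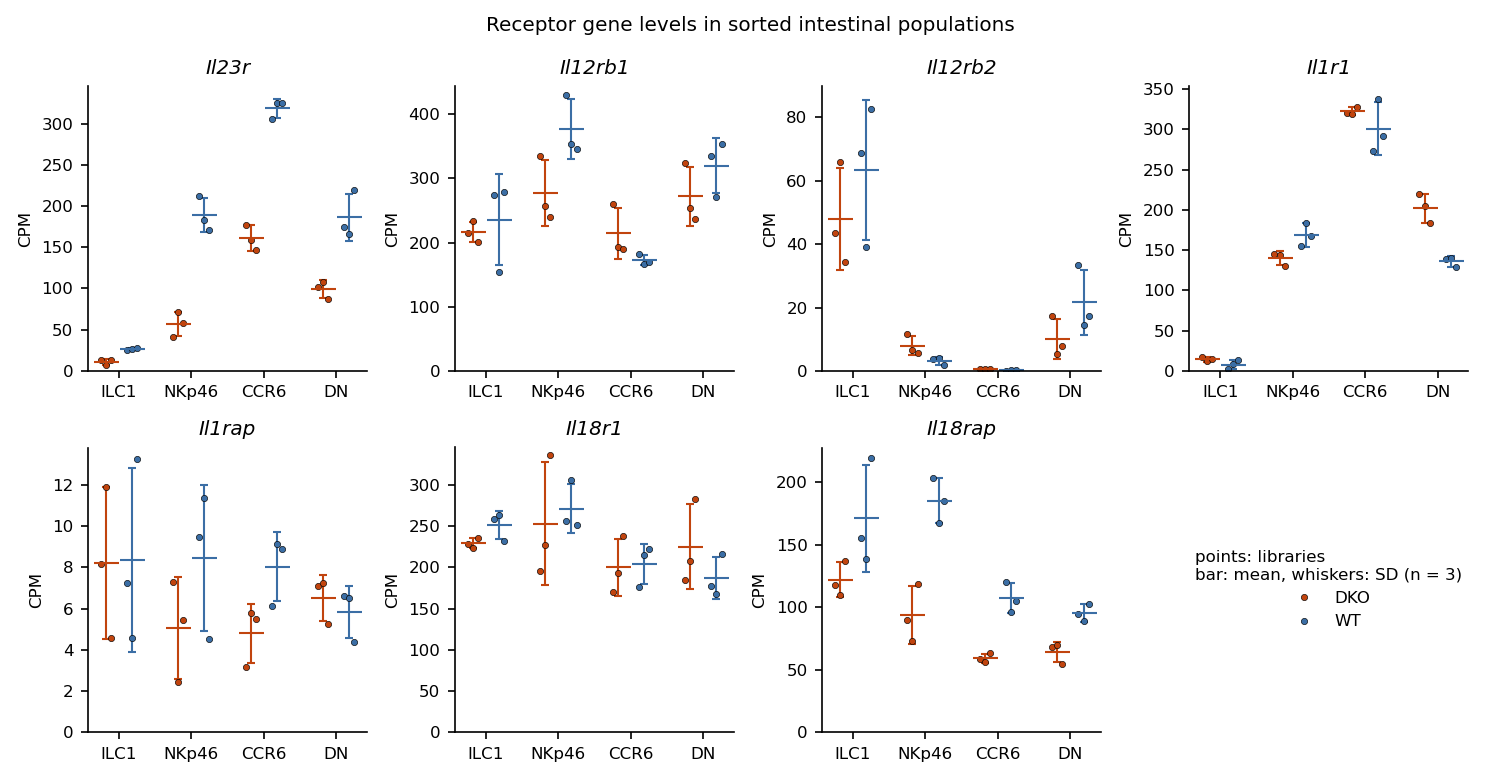
Level of each receptor gene in CPM (vertical axes, from 0) in the 4 sorted populations, with DKO in orange and WT in blue; points are libraries, bars are means and whiskers are SD of 3 libraries. Il23r and Il18rap in DKO lie below all WT libraries in each population, Il12rb2 is highest in ILC1, and Il18r1 overlaps between the genotypes.

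Across the populations, Il23r was highest in CCR6 and lowest in ILC1 in both genotypes. Among WT groups it was highest in CCR6 (318 ± 11.1 CPM, SD, n = 3), followed by NKp46 (189 ± 20.8 CPM) and DN (186.5 ± 28.5 CPM), which did not differ beyond their spread, and lowest in ILC1 (26.8 ± 1.56 CPM). Among DKO groups CCR6 had 160.9 ± 15.7 CPM, DN 99.1 ± 10.9 CPM, NKp46 56.9 ± 15.0 CPM and ILC1 11.0 ± 3.37 CPM, but DN against NKp46 (0.80 ± 0.19, adjusted p = 0.058) and CCR6 against DN (0.70 ± 0.19, adjusted p = 0.074) missed the threshold in DKO. WT CCR6 exceeded WT NKp46 by 0.75 ± 0.19 on the log2 scale (adjusted p = 0.018) and WT DN by 0.77 ± 0.19 (adjusted p = 0.016). The first of these calls was lost without WT NKp46 library 2 (adjusted p = 0.072) or 3 (0.10), or WT CCR6 library 2 (0.061) or 3 (0.065). The second was lost without WT CCR6 library 2 (0.062) or 3 (0.064), or WT DN library 1 (0.099) or 2 (0.11). WT ILC1 was below WT NKp46 (log2 fold change -2.82 ± 0.21, adjusted p = 4.8e-09). Among the genes most like Il23r over the 24 libraries, by Pearson correlation of log2 CPM among 10128 genes, were Prr29 (0.977), Lingo4 (0.977), Xlr4c (0.965) and Stab2 (0.965). These libraries share the same groups, so the coefficients also hold the differences between group means.

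Il12rb1, the chain shared by both receptors, had mean levels between 173 and 377 CPM over the 8 groups and was not called between genotypes. It had 335, 258 and 239.6 CPM in DKO NKp46, against 430.3, 354 and 346 CPM in WT NKp46. These groups did not overlap, but the difference was not called (log2 fold change -0.44 ± 0.19, adjusted p = 0.25). It had 261, 193 and 189.8 CPM in DKO CCR6, against 182, 167 and 170.3 CPM in WT CCR6, where DKO was higher without a call (0.31 ± 0.19, adjusted p = 0.58). In ILC1 and DN the genotypes overlapped. Among WT groups CCR6 was the lowest, with a log2 fold change of -1.12 ± 0.19 against NKp46 (adjusted p = 0.00048) and -0.89 ± 0.19 against DN (adjusted p = 0.0054). WT ILC1 was called below WT NKp46 (-0.68 ± 0.19, adjusted p = 0.024). That call rested on single libraries, since Il12rb1 had 153 CPM in WT ILC1 library 2 and 274 and 278 CPM in the other WT ILC1 libraries, and the adjusted p was 0.12 without it, 0.13 without WT NKp46 library 1 and 0.21 with only the groups compared in the fit. Without WT ILC1 library 2, Il12rb1 was in turn called higher in WT ILC1 than in WT CCR6 (0.68, adjusted p = 0.0054).

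Il12rb2, the chain specific for IL-12, had its mean levels spread over the widest fold range of the 7 members, from 0.137 CPM in WT CCR6 to 63.4 CPM in WT ILC1. It had 43.7, 65.8 and 34.2 CPM in DKO ILC1, against 68.6, 39.1 and 82.5 CPM in WT ILC1, and the genotypes overlapped (-0.41 ± 0.50, adjusted p = 0.77). In CCR6 it was nearly undetected, with 36, 42 and 24 counts in DKO (0.593, 0.756 and 0.550 CPM), against 0, 12 and 21 counts in WT (0, 0.141 and 0.269 CPM). A count of 0 in that library allows up to 3 counts, or 0.057 CPM, for counting error alone. NKp46 libraries had 11.5, 6.63 and 5.79 CPM in DKO, against 3.61, 4.19 and 1.73 CPM in WT. DN libraries had 17.3, 5.22 and 7.84 CPM in DKO, against 33.4, 14.4 and 17.3 CPM in WT. DKO libraries were thus above all WT libraries in NKp46 and CCR6, and they overlapped with WT in DN. None of these differences was called: the log2 fold change was 1.32 ± 0.52 in NKp46 (adjusted p = 0.19), 2.09 ± 0.64 in CCR6 (0.081) and -1.10 ± 0.51 in DN (0.37). In CCR6 the gene was called higher in DKO by DESeq2 (2.14, adjusted p = 0.0039) and in edgeR without WT CCR6 library 3 (2.905, adjusted p = 0.048). The test for any difference of the genotype effect among populations gave an adjusted p of 0.085 for Il12rb2, the smallest of the 7 members. Of all genes, 1.37% were called in that test, and none of the members was; 2 members had an unadjusted p under 0.05, and DESeq2 called 1 member. By DESeq2 the genotype effect on Il12rb2 also differed for DN minus NKp46 (-2.41, adjusted p = 0.028), CCR6 minus DN (3.21, adjusted p = 0.0067) and ILC1 minus CCR6 (-2.56, adjusted p = 0.024), none of which edgeR called (adjusted p = 0.16, 0.19 and 0.19).

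Between populations, Il12rb2 was highest in ILC1, where Il23r was lowest, and lowest in CCR6, where Il23r was highest. Among WT groups it averaged 63.4 ± 22.2 CPM in ILC1, 21.7 ± 10.2 CPM in DN, 3.18 ± 1.29 CPM in NKp46 and 0.137 ± 0.134 CPM in CCR6 (SD, n = 3 each). WT ILC1 was 4.31 ± 0.57 above WT NKp46 on the log2 scale (adjusted p = 2e-05), WT DN was 2.76 ± 0.54 above WT NKp46 (adjusted p = 0.0042), and WT CCR6 was below it (-4.42 ± 0.64, adjusted p = 6.8e-05). WT ILC1 against WT DN missed the threshold (1.55 ± 0.51, adjusted p = 0.068); it was called without WT ILC1 library 2 (1.81) or WT CCR6 library 1 (1.54), each at an adjusted p of 0.037, with a filter on CPM (0.045), with DESeq2 (0.012) and with limma voom (0.0024). Among DKO groups ILC1 exceeded NKp46 by 2.58 ± 0.53 (adjusted p = 0.0039) and DN by 2.24 ± 0.52 (adjusted p = 0.0074), and the call against DN was lost without DKO ILC1 library 2 (adjusted p = 0.051), DKO DN library 2 (0.062) or DKO DN library 3 (0.055). Over the 24 libraries the Pearson correlation of log2 CPM of Il12rb2 with Il23r was -0.749, and with the group means taken off it was -0.181. The exons of Il12rb2 overlap those of Serbp1, on the opposite strand, by 1519 bases, and the strand setting of the counting is not given in the sources used here. Serbp1 had 337 to 387 CPM in the 3 WT CCR6 libraries, in which Il12rb2 had at most 0.269 CPM.

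Levels of the chains were compared with each other per kilobase of annotated exons. Il12rb1 exceeded Il12rb2 on this scale in every group, with 52.7 ± 3.89 against 12.6 ± 4.27 CPM per kb in DKO ILC1 and 57.3 ± 17.3 against 16.7 ± 5.85 CPM per kb in WT ILC1 (SD, n = 3 each). Il23r was the highest member in WT CCR6, with 128.0 ± 4.47 CPM per kb beside 42.2 ± 1.91 for Il12rb1. In DKO CCR6, Il23r had 64.7 ± 6.32 CPM per kb beside 52.3 ± 9.78 for Il12rb1. Within single libraries, the ratio of Il23r to Il12rb1 per kb was 1.12 to 1.36 in DKO CCR6 and 2.77 to 3.21 in WT CCR6. It was 0.203 to 0.456 in DKO NKp46 and 0.813 to 0.855 in WT NKp46, 0.517 to 0.702 in DKO DN and 0.860 to 1.02 in WT DN, and 0.0507 to 0.108 in DKO ILC1 and 0.152 to 0.288 in WT ILC1. The ratio was below the WT libraries in every DKO library of each population, and it does not depend on the scaling between libraries. Per kb values use the union of all annotated exons, and with the length of the longest transcript instead Il12rb1 stood above Il23r in DKO CCR6 (74.7 against 64.7 CPM per kb).

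**Figure D3:**
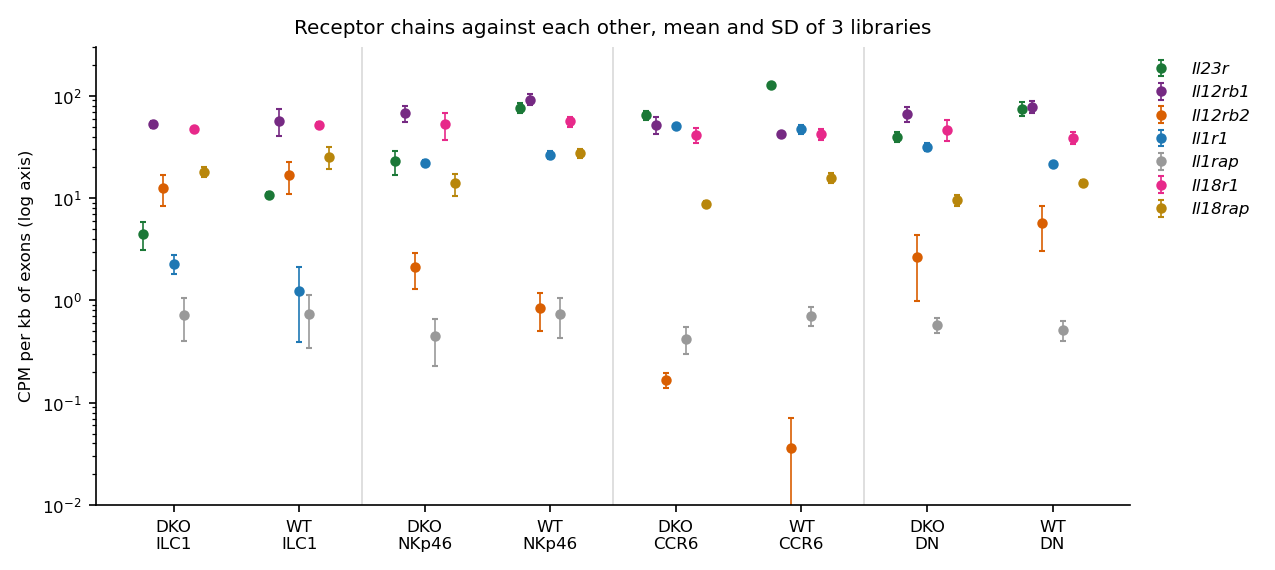
Mean level of each chain in CPM per kb of exons (log axis) in the 8 groups, with DKO left of WT in each population and whiskers of 1 SD over 3 libraries; the lower whisker of Il12rb2 in WT CCR6 runs below the axis. Il23r is the highest member in WT CCR6 at 128.0 CPM per kb, and Il12rb2 is the lowest there.

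Il1r1, the ligand-binding chain for IL-1, was highest in CCR6 and lowest in ILC1, as Il23r was, and was not called between genotypes. It had 320.4, 318 and 328 CPM in DKO CCR6, against 273, 337 and 291 CPM in WT CCR6. It had 146, 144 and 130.0 CPM in DKO NKp46, against 155, 184 and 167 CPM in WT NKp46. The genotypes overlapped in CCR6, and DKO lay below WT in NKp46 without a call (-0.27 ± 0.31, adjusted p = 0.75). In DN, Il1r1 had 219, 204 and 183 CPM in DKO, against 139, 141 and 129 CPM in WT. In ILC1 it had 17.6, 11.8 and 14.3 CPM in DKO, against 2.19, 8.60 and 13.1 CPM in WT. DKO was above all WT libraries in DN, and the groups overlapped in ILC1. Neither was called: the log2 fold change was 0.57 ± 0.31 in DN (adjusted p = 0.50) and 0.87 ± 0.33 in ILC1 (adjusted p = 0.25). The spread of Il1r1 in WT ILC1 enters the shared estimate of the spread, and the DN difference was called when the fit held only the DN groups (0.60, adjusted p = 0.0059), with limma voom (adjusted p = 0.036) or without WT ILC1 library 1 (adjusted p = 0.029). The ILC1 difference was called without WT ILC1 library 3 (1.57, adjusted p = 0.007). Leaving out WT ILC1 library 3 also gave a call for the average over populations (0.49, adjusted p = 0.015), which was 0.32 ± 0.16 with all libraries (adjusted p = 0.24) and was called by limma voom (adjusted p = 0.039). It likewise gave a call for the genotype effect in ILC1 minus that in NKp46 (1.84, adjusted p = 0.02, against 1.14 ± 0.45 and 0.29 with all libraries).

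Across WT populations Il1r1 averaged 300.5 ± 33.0 CPM in CCR6, 169 ± 14.4 CPM in NKp46, 136 ± 6.54 CPM in DN and 7.95 ± 5.46 CPM in ILC1 (SD, n = 3 each). WT ILC1 was below each of the other WT populations, with log2 fold changes of -4.40 ± 0.36 against NKp46 (adjusted p = 2.6e-08), -5.24 ± 0.37 against CCR6 and -4.10 ± 0.36 against DN. WT CCR6 was above WT DN (1.14 ± 0.31, adjusted p = 0.029). That call was lost when any of WT CCR6 library 2 or 3 or WT DN library 1, 2 or 3 was left out (adjusted p 0.078 to 0.12), and with no filter on low counts (0.10). WT CCR6 against WT NKp46 was not called (0.83 ± 0.31, adjusted p = 0.14), although these groups did not overlap; it was called with only these groups in the fit (adjusted p = 0.00075), with limma voom (0.00026), and without WT ILC1 library 1 (0.00039) or 3 (0.042). The Pearson correlation of Il1r1 with Il23r was 0.980 over the 12 DKO libraries and 0.968 over the 12 WT libraries, and 0.836 over all 24. With the group means taken off it was 0.211 over the 24 libraries.

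Il1rap, the accessory chain of the IL-1 receptor, was low in all groups. Its libraries ranged from 2.44 to 11.9 CPM in DKO and from 4.36 to 13.3 CPM in WT, and no comparison called it. Its log2 fold changes for DKO against WT were -0.74 ± 0.45 in NKp46 and in CCR6, -0.04 ± 0.45 in ILC1 and 0.17 ± 0.45 in DN. Per kb of exons it was at most 0.743 CPM per kb on average in any group, and at most 1.87 CPM per kb by the length of its longest transcript. The union of Il1rap exons is long, 11.4 kb against 4.52 kb for its longest transcript, and its exons overlap 862 bases of the antisense gene Gm20319.

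Il18rap, the accessory chain for IL-18, was the other member with a call between genotypes. It had 90.2, 73.1 and 119 CPM in DKO NKp46, against 203, 167 and 185 CPM in WT NKp46. It had 58.3, 56.0 and 63.4 CPM in DKO CCR6, against 119.9, 96.2 and 105 CPM in WT CCR6. The groups did not overlap, and both differences were called, with log2 fold changes of -0.98 ± 0.17 in NKp46 (adjusted p = 0.0014) and -0.85 ± 0.17 in CCR6 (adjusted p = 0.0037). In ILC1 it had 118, 110.2 and 137 CPM in DKO, against 156, 139 and 219.6 CPM in WT. In DN it had 68.7, 69.6 and 54.7 CPM in DKO, against 94.8, 89.0 and 103 CPM in WT. These groups did not overlap either, but the differences were not called (ILC1 -0.49 ± 0.17 with an adjusted p of 0.22, DN -0.57 ± 0.17 with an adjusted p of 0.091). In DN the gene was called by DESeq2 (adjusted p = 0.042), with only the DN groups in the fit (0.034) and without WT ILC1 library 2 (0.045) or 3 (0.05). Averaged over the populations, the log2 fold change of Il18rap was -0.72 ± 0.087 (adjusted p = 3.1e-06).

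Il18r1, the ligand-binding chain whose gene lies next to Il18rap, was not called between genotypes in any population. It had 195, 227 and 336 CPM in DKO NKp46, against 256, 305 and 251 CPM in WT NKp46. It had 169.6, 193 and 238 CPM in DKO CCR6, against 176, 215 and 222 CPM in WT CCR6. The genotypes overlapped in these and in the ILC1 and DN populations. The log2 fold change was -0.10 ± 0.18 in NKp46 (95% interval -0.474 to 0.277) and -0.03 ± 0.18 in CCR6 (-0.405 to 0.346), and the average over populations was 0.002 ± 0.090 (adjusted p = 1.0). Within single libraries, the ratio of Il18rap to Il18r1 per kb was 0.230 to 0.329 in DKO NKp46 and 0.391 to 0.565 in WT NKp46, and 0.190 to 0.245 in DKO CCR6 and 0.319 to 0.485 in WT CCR6. It was 0.138 to 0.266 in DKO DN and 0.341 to 0.382 in WT DN, without overlap in these 3 populations. In ILC1 the ratio was 0.352 to 0.416 in DKO and 0.376 to 0.678 in WT, where the groups overlapped.

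**Figure D4:**
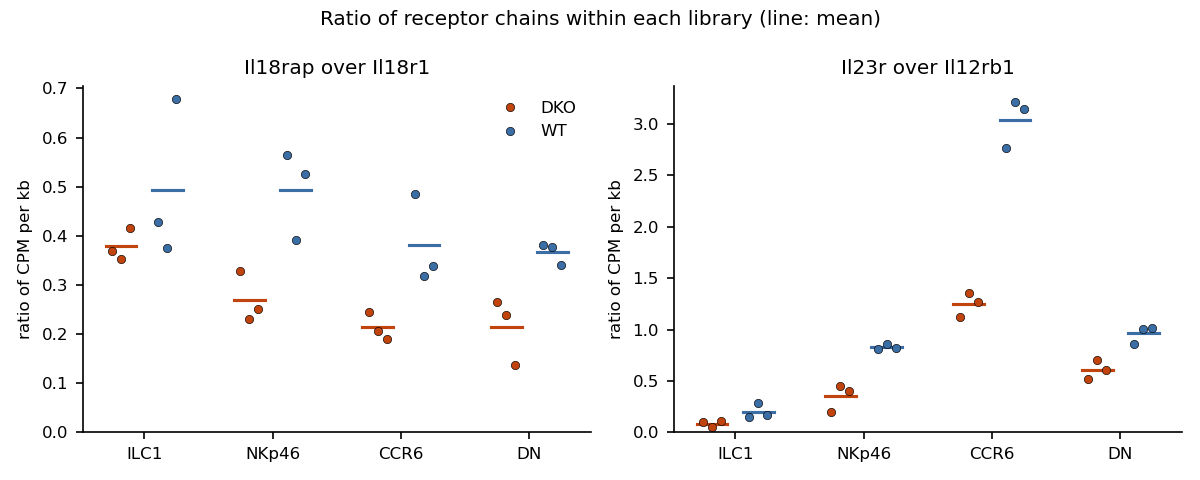
Ratio of CPM per kb (vertical axes, from 0) of Il18rap to Il18r1 (left) and of Il23r to Il12rb1 (right) in each library, with DKO in orange left of WT in blue; lines are means of 3 libraries. DKO libraries lie below WT libraries for Il23r over Il12rb1 in each population, and for Il18rap over Il18r1 in NKp46, CCR6 and DN but not in ILC1.

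Across WT populations, Il18rap was higher in ILC1 (171 ± 42.7 CPM) and NKp46 (185 ± 18.0 CPM) than in CCR6 (107 ± 12.0 CPM) and DN (95.6 ± 7.03 CPM; SD, n = 3 each). ILC1 and NKp46 did not differ beyond their spread, nor did CCR6 and DN. WT CCR6 against WT NKp46 gave a log2 fold change of -0.79 ± 0.17 (adjusted p = 0.0052), WT DN against WT NKp46 -0.95 ± 0.17 (adjusted p = 0.0023), WT ILC1 against WT CCR6 0.68 ± 0.17 (adjusted p = 0.0074) and WT ILC1 against WT DN 0.84 ± 0.17 (adjusted p = 0.003). The comparison of WT ILC1 with WT CCR6 was not called without WT ILC1 library 3 (0.43, adjusted p = 0.079) or WT CCR6 library 2 (0.59, adjusted p = 0.055), and neither ILC1 comparison was called with only its 2 groups in the fit (adjusted p = 0.080 and 0.089). Il18r1 had WT means of 187 CPM in DN to 271 CPM in NKp46, with no call between WT populations; WT DN against WT NKp46 (-0.54 ± 0.18, adjusted p = 0.14) was called with only those groups in the fit (-0.55, adjusted p = 0.038), with the replicate number as a block (-0.55, adjusted p = 0.049) and with a block by genotype and number (-0.54, adjusted p = 0.034).

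Genes beside the members in the genome differed in direction. On chromosome 1, Il1r2, which encodes the IL-1 decoy receptor and lies 99.8 kb before Il1r1, fell in DKO NKp46. It averaged 0.991 ± 1.36 CPM there, against 42.1 ± 4.15 CPM in WT NKp46 (log2 fold change -5.40 ± 0.91, adjusted p = 0.00075). In the other populations Il1r2 was lower without a call, and averaged over all 4 populations it was called (-3.03 ± 0.41, adjusted p = 1.5e-05). It was the only call among the 6 other genes of the IL-1 receptor family within a population, of which 4 were tested. Map4k4, Il1rl2, Il1rl1 and Slc9a2 were not called in any population, among them Il1rl1, which encodes the IL-33 receptor and ends 136 bases before Il18r1 starts. On chromosome 6, Gng12 rose in DKO in all 4 populations, by 0.62 ± 0.14 in CCR6 to 1.19 ± 0.14 in DN on the log2 scale. Gadd45a, a growth arrest gene, fell in NKp46 (-1.44 ± 0.33, adjusted p = 0.013) and was lower without a call elsewhere. Serbp1 and Il12rb2, which lie between them and Il23r, were not called.

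**Figure D5:**
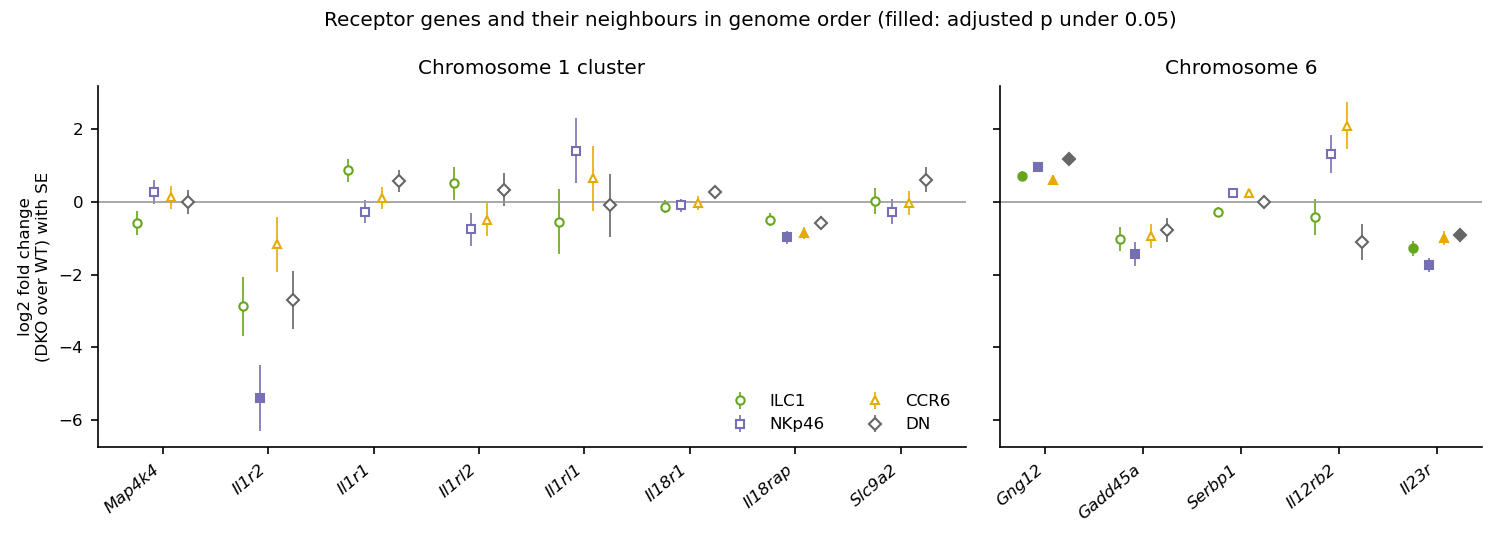
Log2 fold change of DKO over WT with its SE (vertical axis) for the receptor genes and those neighbours that reached 5 CPM in a group, in genome order on chromosome 1 (left) and chromosome 6 (right); symbols are populations, and filled ones passed an adjusted p of 0.05. Il1r2 lies at -5.40 in NKp46, Il18rap is below 0 beside Il18r1 near 0, and Gng12 is above 0 while Il23r is below 0.

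Among the ligands and soluble inhibitors of these receptors, 7 of 8 genes were tested and 1 was called within a population. Il18bp, which encodes a secreted protein that binds IL-18, rose in DKO CCR6, with 25.4 ± 9.34 CPM against 12.1 ± 2.53 CPM in WT CCR6 (1.07 ± 0.26, adjusted p = 0.019). Of 6 other genes of the IL-6 and IL-12 receptor family, Il27ra fell in NKp46 (-1.06 ± 0.20), CCR6 (-0.78 ± 0.20) and DN (-1.11 ± 0.20), and no other was called within a population. Il27ra encodes the specific chain of the IL-27 receptor. It averaged 164 ± 31.6 CPM in DKO NKp46 and 342 ± 53.9 CPM in WT NKp46. Of 11 genes of JAK-STAT signalling, Socs3, an inhibitor of STAT3 signalling, rose in NKp46 (1.28 ± 0.17, adjusted p = 4.9e-05) and Stat5b rose in DN (0.80 ± 0.17, adjusted p = 0.0095), while none was called in ILC1 or CCR6 and Stat3 and Stat4 were not called in any population. Of 17 genes of MyD88 signalling, Pik3r1 rose in NKp46 and CCR6 (0.40 ± 0.11 and 0.39 ± 0.11), and in DN Irak2 rose (0.50 ± 0.13) and Irak3, an inhibitor of the pathway, fell (-0.81 ± 0.19).

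Of 8 cytokine genes that lymphocytes are known to express on activation, 1 rose in DKO ILC1, 2 rose and 1 fell in NKp46, 5 rose in CCR6 and 2 rose in DN. Il17f averaged 116 CPM in DKO NKp46 and 4.19 CPM in WT NKp46 (4.81 ± 0.61, adjusted p = 3.3e-05), and it rose in CCR6 (3.26 ± 0.56) and DN (4.78 ± 0.60) as well. Csf2, Ifng, Il2 and Tnf rose in CCR6 (Csf2 by 1.47 ± 0.29 on the log2 scale), Tnf rose in DN (0.78 ± 0.18) and fell in NKp46 (-0.67 ± 0.18), Il17a rose in NKp46 (4.03 ± 0.84) and Lta rose in ILC1 (0.93 ± 0.15). Il22, added to the named genes after its values were seen, was lower in DKO without a call within a population. It averaged 603 ± 113 CPM in DKO NKp46 and 1423 ± 214 CPM in WT NKp46 (-1.24 ± 0.41, adjusted p = 0.11), and 1342 ± 175 CPM in DKO CCR6 and 2407 ± 1110 CPM in WT CCR6 (-0.84 ± 0.41, adjusted p = 0.39). Averaged over the populations it was called (-0.84 ± 0.21, adjusted p = 0.0081). Of 14 transcription factor genes known to bear on the expression of these receptors, 2 rose and 1 fell in NKp46, 1 rose and 3 fell in CCR6, 1 rose and 3 fell in DN, and none was called in ILC1. Batf, a factor of IL-17-producing cells, fell in NKp46 (-0.84 ± 0.22), CCR6 (-1.22 ± 0.22) and DN (-0.89 ± 0.21). Tcf7, which encodes TCF-1, rose in NKp46 (0.80 ± 0.12) and DN (0.69 ± 0.12), and Ikzf3 rose in CCR6 (1.09 ± 0.17).

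Markers of cell types also differed between the genotypes. The summed level of 12 T cell markers was 1407 to 1657 CPM in DKO DN and 3231 to 3402 CPM in WT DN, where 8 of the 12 were called lower and none higher, and no marker was at 0. Against WT NKp46, 11 of these 12 were called higher in WT DN and none lower. Of 10 ILC2 markers, 6 were called higher in WT DN than in WT NKp46 and none lower (2.97% of all genes were called in either direction). The part of these markers in the receptor levels of DN was not tested. The sum of 9 ILC3 markers, which include Il23r, was 3895 to 4112 CPM in DKO NKp46 and 5700 to 6574 CPM in WT NKp46, with 3 called lower and 3 higher. In CCR6 it was 6059 to 6631 CPM in DKO and 8131 to 9814 CPM in WT, with 3 called lower and 1 higher. The sum of 10 myeloid markers was 62.5 to 91.8 CPM in DKO ILC1 and 192 to 648 CPM in WT ILC1, with none of 9 tested called and Fcgr1 at 0 in WT. The sum of 10 ILC1 and NK cell markers was 1891 to 2241 CPM in DKO NKp46 and 2357 to 2845 CPM in WT NKp46 (1 called lower, Eomes at 0 in WT). That lower sum rested on Ncr1, Il2rb (602 against 1074 CPM) and Klrb1c (97.5 against 129 CPM). Every other marker of this list averaged higher in DKO NKp46, and the median log2 fold change of the list was 0.44. The same sum was 551 to 668 CPM in DKO CCR6 and 713 to 1046 CPM in WT CCR6 (3 lower, 1 higher). In DN it was 976 to 1145 CPM in DKO and 1390 to 1477 CPM in WT (2 lower, 1 higher). The sum of 10 ILC2 markers was 903 to 1234 CPM in DKO DN and 1473 to 1830 CPM in WT DN, and 649.8 to 739.8 CPM in DKO CCR6 and 802 to 832 CPM in WT CCR6, with 1 called lower in each. The sum of 8 B and plasma cell markers was 317 to 348 CPM in DKO NKp46 and 166.5 to 200.4 CPM in WT NKp46, 73.9 to 88.6 CPM in DKO CCR6 and 129 to 230.3 CPM in WT CCR6, and 205 to 276 CPM in DKO DN and 302 to 347.5 CPM in WT DN. The sum of 8 epithelial markers was 35.5 to 48.0 CPM in DKO DN and 5.27 to 8.14 CPM in WT DN. Of 7 tested, 1 was called higher there and none lower. In CCR6 the sum was 18.4 to 37.3 CPM in DKO and 5.64 to 10.05 CPM in WT, with 1 called higher. For NKp46 it was 14.9 to 28.5 CPM in DKO and 6.86 to 14.5 CPM in WT, with none called. The sum in DKO DN rested mostly on Krt18, with a mean of 29.9 CPM against 3.19 CPM in WT DN. Epcam, Fabp2 and Krt20 were lower in DKO DN than in WT DN and below 1 CPM in both. The part of these markers in the differences of Il23r and Il18rap was not tested. Without WT ILC1 library 2, which had the myeloid sum of 648 CPM, Il23r was called lower in DKO ILC1 (-1.27 ± 0.22, adjusted p = 0.002). The other WT ILC1 libraries had myeloid sums of 192 and 224 CPM, also above those of all DKO ILC1 libraries. Leaving out library 2 therefore does not remove the difference in myeloid markers, whose part was not tested.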

How the data were processed

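The authors deposited raw counts for 24 libraries, 1 whole number per Ensembl gene and library. The libraries were made with a low-input SMARTer kit from 10 ng of total RNA and 12 to 15 PCR cycles, per the labels' protocols. The submitters' processing notes name STAR 2.7.9a, featureCounts 2.0.3, Salmon 1.5.2, DESeq2 and the mm10 build. The sources used here do not say which tool made the counts or its strand setting. PCR copies cannot be told from separate molecules, so limits from counts cover counting error only.

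Of 55774 rows, 455 repeated 168 Ensembl IDs with identical counts, and 1 row per ID was kept. Counts were filtered by expression (filterByExpr) and scaled by TMM (trimmed mean of M values). Then 1 mean per group was fitted to all 24 libraries with edgeR 4.0.16 in R 4.3.3 (quasi-likelihood, robust; 16 residual degrees of freedom). Every adjusted p is from this test with Benjamini-Hochberg adjustment over 21286 genes, unless another tool (limma 3.58.1, DESeq2 1.42.0) or setting is named. Standard errors come from the fold change and its F statistic. Replicates correlated at 0.889 to 0.968 (Spearman). Log2 CPM used a prior count of 2. On simulated counts for DKO against WT in NKp46 with 21286 genes, 43 of 100 genes changed by a log2 of 1 and 87 of 100 changed by 2 were recovered.

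The members and gene lists were chosen with earlier results of these data known. Named beside the members were the deleted genes, sorting markers, genome neighbours, the 5 genes most like each member, and up to 4 called genes per list by adjusted p. Promoter and gene coordinates came from RefSeq and GENCODE on GRCm38. One gene of these lists is not reported here.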

Additional observations from a re-analysis of the deposited data

How the results depend on the processing

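The number of members called changed with the tool or the libraries in the fit. With only the groups compared, it was 0 for DKO against WT in ILC1 and 3 in DN, and DESeq2 and limma voom gave 2 in DN. DKO DN against DKO NKp46 gave 1 with no filter, DESeq2, limma voom or only the groups compared. DKO CCR6 against DKO DN gave 2 with no filter or DESeq2, and 3 with limma voom or only the groups compared. DESeq2 called 1 member for any difference of the genotype effect. Leaving out 1 library at a time gave 0 to 1 for that test, 1 to 2 for DKO against WT in ILC1, 0 to 2 in DN, 1 to 2 for DKO CCR6 against DKO DN, 2 to 4 against DKO NKp46, 0 to 1 for DKO DN against DKO NKp46 and 2 to 4 for WT CCR6 against WT DN.

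Changes of sign were seen only for log2 fold changes near 0 that were not called. Il1rap in WT ILC1 against WT NKp46 was 0.026 with RLE, 0.061 with upper-quartile scaling, 0.008 with a CPM filter, 0.028 with DESeq2, 0.076 with limma voom, 0.048 with the replicate block, 0.01 with the block by genotype and number, 0.007 with only these groups, and -0.523 to 0.287 without single libraries. With no filter Il1rap was 0.006 for DKO against WT in ILC1 and -0.006 for WT ILC1 against WT CCR6. Without single libraries these ran from -0.405 to 0.487 and -0.451 to 0.359, and WT CCR6 against WT NKp46 from -0.377 to 0.209. The averaged genotype effect of Il18r1 was -0.003 with RLE and DESeq2, -0.012 with limma voom and with the replicate block, and -0.058 to 0.046 without single libraries. Its effect ran from -0.172 to 0.081 in CCR6 and -0.363 to 0.046 in NKp46. Il23r in WT DN against WT NKp46 was 0.037 with upper-quartile scaling and -0.145 to 0.083 without single libraries. Il12rb1 ran from -0.351 to 0.039 for DKO against WT in ILC1, and Il18rap from -0.351 to 0.027 for WT ILC1 against WT NKp46. The cause was not tested.

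Libraries of the same replicate number shared part of their deviations from the group means. Between populations of 1 genotype, the mean correlation of these deviations was 0.0768 for same-numbered pairs, with 12 of 36 over 0.1. For other pairs it was -0.0381, with 1 of 72 over 0.1. Between genotypes of 1 population, 3 of 12 same-numbered pairs were over 0.1. Of 24 libraries, 22 correlated best with their own number. What a number stands for is not labelled, and the main fit holds no block for it. With the replicate block, members called were 1, 2, 2 and 1 for DKO against WT in ILC1, NKp46, CCR6 and DN, as without it, and 3 instead of 2 for WT DN against WT NKp46, where Il18r1 was added. Fitting only the groups compared does not apply to results over all groups.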

Other observations

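Genes whose levels were most like those of the other members over the 24 libraries differed from one receptor chain to the next. For Il12rb2 they were Vsir (Pearson r 0.965), Dusp2 (0.960), Cdh1 (0.950), Skap1 (0.950) and Socs2 (0.944), and for Il1r1 they were Arhgef11 (0.967), Ret (0.967), Plin3 (0.965), Cd93 (0.949) and Rell1 (0.949). For Il18rap they were led by Snx5 (0.950) and Ipcef1 (0.906), and for Il12rb1 by Fgl2 (0.883) and Msn (0.870). The gene most like Il18r1 was Ppcdc (0.842), and the one most like Il1rap was Tgoln1 (0.731). The coefficients also hold the differences between group means. With the group means taken off, the genes most like Il23r were led by Zfp934 (0.834) and those most like Il12rb2 by Ccr9 (0.800), the gut-homing chemokine receptor.

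The genes of the ligands were low in the sorted cells. Il23a averaged at most 0.320 CPM in any group and Il12b at most 0.0874 CPM, Il12a averaged at most 1.16 CPM, and Il1a, Il1b and Il18 averaged at most 2.02, 2.30 and 0.392 CPM. Of the soluble inhibitors, Il1rn averaged at most 2.88 CPM, and Il18bp averaged 5.22 CPM in WT ILC1 to 29.3 CPM in DKO DN.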
